A study of Danio rerio with 6 samples.

Results

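Genes of glycogen metabolism were followed in the trunk and tail muscle of runzel mutant zebrafish larvae and of their wildtype siblings. They were taken as every probe set whose single gene symbol in the platform annotation begins with ppp1r3, pyg, gys, gbe1, gyg or phk, or is agl or pgm1. This gave 21 of 15502 probe sets, for 12 of 8793 named genes. A probe set is the group of short probes that an Affymetrix array uses to read 1 transcript. No probe set with a single symbol matched gys, gbe1 or agl, so glycogen synthase, the branching enzyme and the debranching enzyme are not analysed here. Of the 12 genes, ppp1r37 and pygo2 matched the letters of the rule but are not genes of glycogen metabolism: ppp1r37 encodes another regulator of protein phosphatase 1, and pygo2 a nuclear cofactor of Wnt signalling in mammals. That leaves 16 probe sets of 10 glycogen genes.

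The runzel group held 3 arrays of larvae carrying the runzel mutation, which the series title places in titin, and the wildtype group held 3 arrays of siblings. The sample titles give an age of 3.5 days for both groups, and the protocol gives 3 to 3.5 days. The larvae were untreated, and muscle was pooled after the head, heart and gut had been cut away. The larvae came from 3 clutches with both groups taken from each, but the labels do not say which clutch an array came from. The number of larvae in a pool, the allele and whether siblings carried 1 copy of it are not given in the sources used here, and p-values measure the spread between these pools.

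Glycogen is the branched glucose store of muscle. Glycogenin starts each particle, glycogen synthase and the branching enzyme extend it, and glycogen phosphorylase releases glucose 1-phosphate, which phosphoglucomutase turns into glucose 6-phosphate. Phosphorylase kinase switches phosphorylase on, and protein phosphatase 1 reverses this and activates glycogen synthase. Subunits of the ppp1r3 family tether the phosphatase to the glycogen particle.

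The signal of ppp1r3ca was higher in runzel muscle on all 3 arrays at 1 of its probe sets. It was the one glycogen gene that passed a test across all probe sets. It passed with arrays paired by replicate number, but not in the fit without pairs, which was planned as the main one. It encodes a homologue of mammalian PPP1R3C, known as protein targeting to glycogen. The brighter of its probe sets read 1283.2, 1337.3 and 1307.7 on the runzel arrays, against 621.6, 586.4 and 425.2 on the wildtype arrays (linear signal, replicates 1 to 3). The groups did not overlap, and the runzel arrays lay closer together than the wildtype arrays, at 1309 ± 27.1 and 544 ± 105 (mean ± SD, n = 3). On the log2 scale, taken after adding 50 to each signal, the difference was 1.21, which is 2.31-fold, and the ratio of the mean signals was 2.41. Within arrays of the same replicate number it was 0.99, 1.12 and 1.51.

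Arrays with matching replicate numbers were treated as pairs, because their values deviated together, as read from the same values that were then tested. With the pairs as a block in limma, ppp1r3ca rose (adjusted p = 0.00763, SE 0.167, 95% interval 0.84 to 1.58). Without the block it did not pass (adjusted p = 0.23, unadjusted p = 8.88e-05, SE 0.184, 95% interval 0.79 to 1.62). It ranked 13 of 9301 tested probe sets by log2 difference, 3 by unadjusted p without the block and 18 with it. The exact permutation p was 0.1 and the exact sign-flip p over 3 pairs was 0.25, each the smallest the design allows (two-sided). The paired call was lost without limma's intensity trend (adjusted p = 0.119), and was kept with any 1 pair left out (adjusted p = 0.0111 to 0.033).

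A dimmer probe set annotated to the same gene did not show the difference. It read 294.7, 183.9 and 81.1 in runzel muscle and 256.2, 212.4 and 162.3 in wildtype muscle, so the groups overlapped. Its log2 difference was -0.23 ± 0.437 (SD over 3 pairs, exact permutation p = 0.8), and it turned to 0.14 without runzel array 3 and was -0.56 without runzel array 1. It lay at percentile 21.6 of mean log2 signal, below the 40th percentile at which testing began. The log2 ratio of the brighter to the dimmer ppp1r3ca probe set was 1.95, 2.57 and 3.37 on runzel arrays and 1.13, 1.28 and 1.16 on wildtype arrays, given as a description since the probe sets were set side by side after their values were seen and the dimmer one is near the low end of the arrays. With the mean of both probe sets in place of the brighter one, the difference was 0.49 and the mean lay below the intensity filter, so it has no test. The rise of ppp1r3ca therefore rests on 1 probe set, and which transcripts each probe set reads was not tested.

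**Figure D1:**
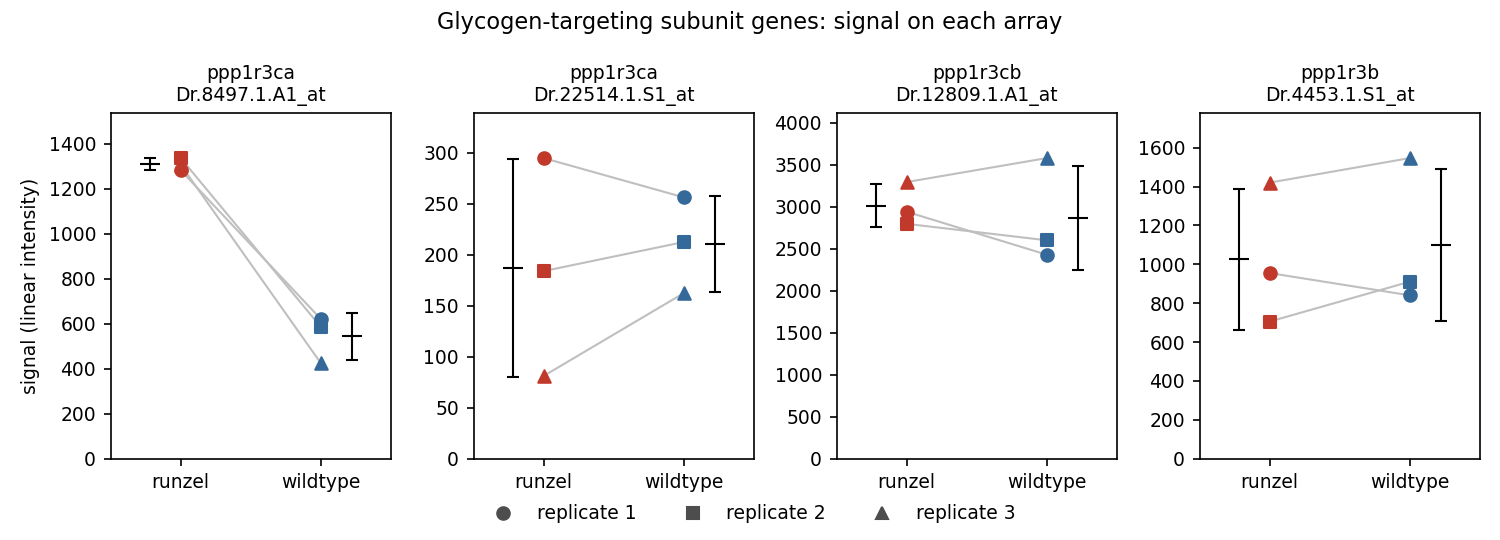
Signal on each array (linear intensity, vertical axis from 0) for both ppp1r3ca probe sets, ppp1r3cb and ppp1r3b, with runzel left of wildtype, lines joining arrays of the same replicate number, and mean ± SD beside the points (n = 3). At the brighter ppp1r3ca probe set the runzel arrays read 1283.2 to 1337.3 and the wildtype arrays 425.2 to 621.6, while the other 3 probe sets overlap between groups.

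The other targeting subunits measured did not pass in either fit. The paralogue ppp1r3cb read 2941.5, 2797.3 and 3295.2 in runzel and 2429.7, 2601.6 and 3580.7 in wildtype muscle. These values overlapped, with a log2 difference of 0.09 (95% interval -0.31 to 0.48 without the block, -0.19 to 0.36 with it, paired adjusted p = 0.837). The log2 ratio of ppp1r3ca to ppp1r3cb ran from -1.30 to -1.04 on runzel arrays and from -2.93 to -1.88 on wildtype arrays. The groups did not overlap in this ratio, which differed by 1.12 ± 0.466 (SD over 3 pairs) and was chosen after the values were seen, so it has no test.

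The gene ppp1r3b, whose mammalian product targets the phosphatase to glycogen in liver and muscle, read 954.9, 705.3 and 1420.0 in runzel and 840.3, 910.4 and 1546.3 in wildtype muscle. In both groups replicate 3 was the highest, and the groups overlapped, with a difference of -0.10 (95% interval -0.44 to 0.25 with the block, paired adjusted p = 0.857). Untested for low signal were ppp1r3da, another targeting subunit, at 343.4, 354.0 and 67.4 in runzel and 309.2, 237.3 and 214.1 in wildtype muscle, and ppp1r3c2b, at 11.5 to 73.8 and 19.4 to 103.7. For ppp1r3da the exact permutation p was 1 and for ppp1r3c2b it was 0.7.

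Of the enzymes, pgm1 and pygmb were higher in runzel muscle in every pair at both of their probe sets, without passing in either fit. All 3 pairs were higher at 18.1% of all tested probe sets. Phosphoglucomutase gene pgm1 read 12285.6, 15798.7 and 15385.1 in runzel muscle, against 9943.9, 10636.9 and 12185.6 in wildtype muscle, at the dimmer of its probe sets. The lowest runzel array was just above the highest wildtype array, and runzel lay wholly above at 5.89% of all tested probe sets. The log2 difference was 0.40 ± 0.145 (SD over 3 pairs), with adjusted p = 0.935 without the block and 0.0801 with it (95% interval 0.20 to 0.61 with the block). At the brighter pgm1 probe set the runzel arrays read 12125.7, 16939.0 and 16260.4 and the wildtype arrays 9678.0, 10783.7 and 14049.2. Here the groups overlapped through wildtype array 3, and the difference was 0.39 ± 0.228 (adjusted p = 0.977 without the block, 0.117 with it). Leaving out pair 3 brought this brighter probe set past the threshold with the block (log2 0.49, adjusted p = 0.0405). Both pgm1 probe sets ranked within the first 200 of 9301 by paired p, at 136 and 200.

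Glycogen phosphorylase of muscle type, encoded by pygmb, read 6024.1, 6629.6 and 6166.7 in runzel muscle, against 5015.4, 5903.2 and 4854.2 in wildtype muscle, at the brighter of its probe sets. The groups did not overlap, which held with runzel above at 5.89% of all tested probe sets. The log2 difference was 0.26 ± 0.0881, with adjusted p = 0.977 without the block and 0.334 with it. Its 95% interval was -0.04 to 0.56 without the block and 0.03 to 0.49 with it. At the dimmer pygmb probe set the signals were 3547.2, 5153.8 and 3905.6 in runzel and 2594.7, 3779.5 and 3329.4 in wildtype muscle. Replicate 2 was the highest of both groups there and the groups overlapped. The difference was 0.37 ± 0.125, with adjusted p = 0.977 without the block and 0.202 with it.

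Phosphorylase of liver type, encoded by pygl, had a mean log2 difference below 0 at its 3 probe sets, with pairs of either sign at each and no call. At the brightest it read 1407.6, 1021.4 and 578.9 in runzel and 1522.0, 1289.3 and 549.5 in wildtype muscle. Replicate 3 was low in both groups, and the difference was -0.12 with a 95% interval of -0.46 to 0.21 in the paired fit (adjusted p = 0.802). At the other tested pygl probe set the values were 466.8, 577.8 and 480.7 in runzel and 790.0, 685.8 and 403.9 in wildtype muscle, a difference of -0.23 (paired adjusted p = 0.708). The untested one, of a kind whose probes can also bind other transcripts, lay at 171.3 to 642.7 in runzel and 388.7 to 468.4 in wildtype muscle. Its log2 difference was -0.03 ± 1.04 (SD over 3 pairs), and 0.51 without runzel array 3. Its mean linear signal was higher in runzel muscle, at 477 against 430.

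The glycogenin gene gyg1a read 3352.3, 3441.5 and 3844.7 in runzel and 2815.6, 2929.1 and 3603.0 in wildtype muscle at the brighter of its probe sets. It was higher in 3 of 3 pairs, but the groups overlapped and the difference of 0.19 ± 0.0847 did not pass (95% interval -0.06 to 0.44 with the block, paired adjusted p = 0.543). Its other probe set differed by 0.15 ± 0.228 and was higher in 2 of 3 pairs (paired adjusted p = 0.69). The gene phkg2, for a catalytic subunit of phosphorylase kinase, read 1160.9, 1177.7 and 1030.8 in runzel and 1208.5, 1235.2 and 986.6 in wildtype muscle. Its difference was -0.02, with a 95% interval of -0.33 to 0.29 in the paired fit, and it was the smallest in size among the tested glycogen probe sets. No other gene beginning with phk was among the members, so subunits encoded by other phk genes are not analysed here.

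**Figure D2:**
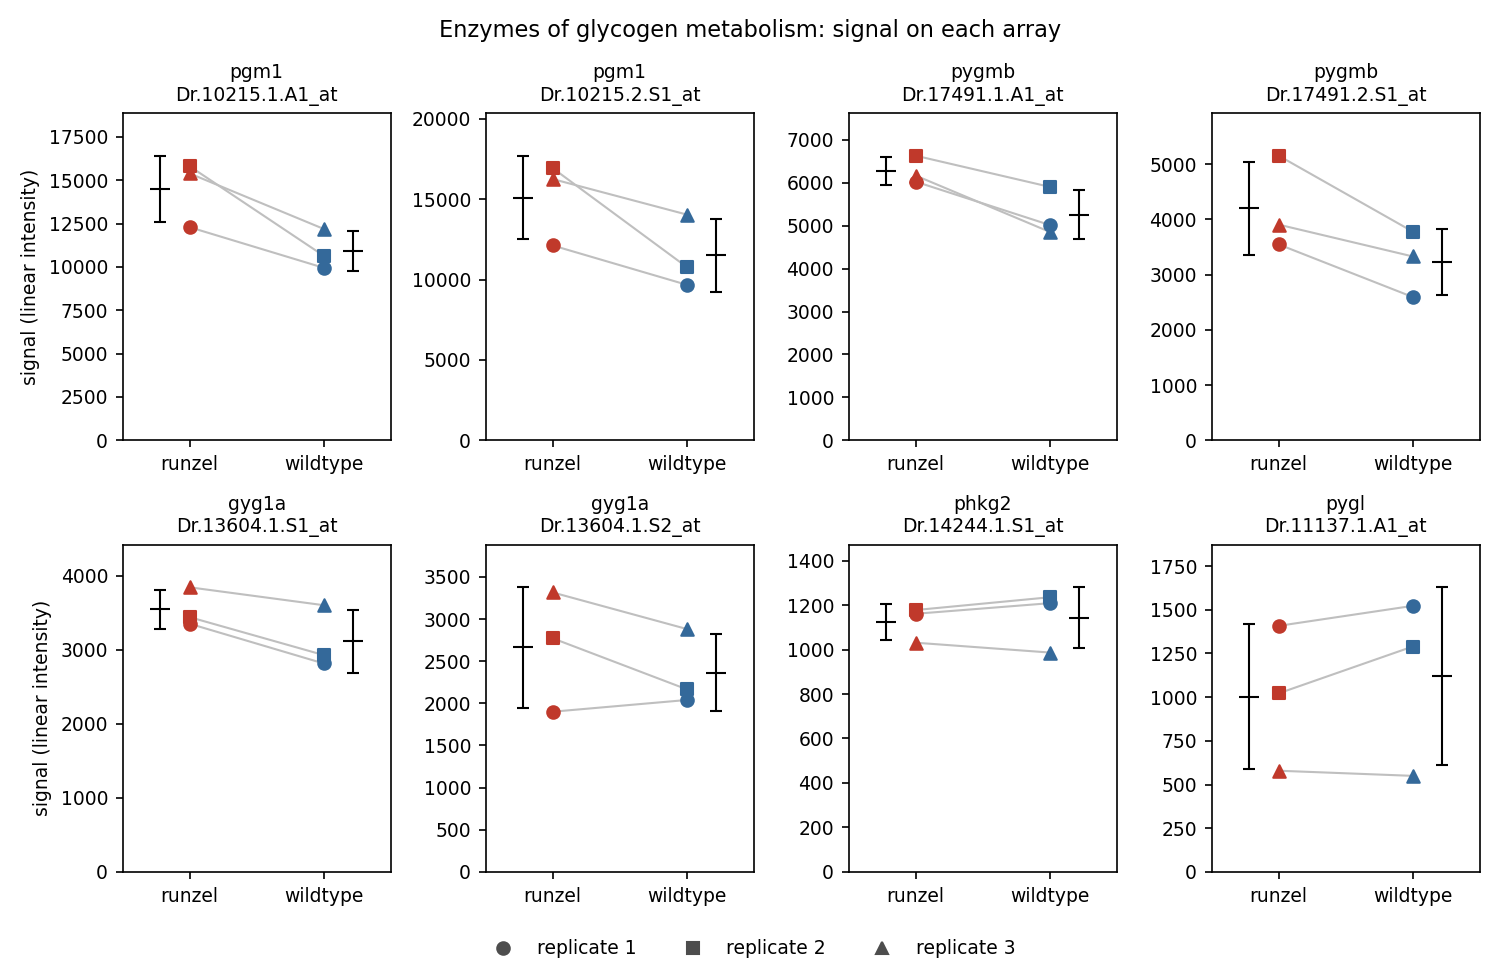
Signal on each array (linear intensity, vertical axis from 0) for 8 probe sets of the enzymes pgm1, pygmb, gyg1a, phkg2 and pygl, with runzel left of wildtype, lines joining arrays of the same replicate number, and mean ± SD beside the points (n = 3). Lines fall to the right in 3 of 3 pairs for pgm1 and pygmb, and the groups separate at the dimmer pgm1 and the brighter pygmb probe set.

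The probe sets of the genes that share only letters with the rule did not pass. For pygo2 the differences were 0.02, 0.05 and 0.25 from the brightest probe set to the dimmest, and at the dimmest the runzel arrays read 666.5 to 800.8 and the wildtype arrays 569.0 to 624.9, without overlap (paired adjusted p = 0.617). For ppp1r37 the tested probe set differed by 0.06 (paired adjusted p = 0.924), and the untested one read 60.7 to 109.2 in runzel and 55.6 to 90.4 in wildtype muscle.

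Over the rule's 21 probe sets, 16 passed the filter on low signal. With the pairs as a block, 1 of these 16 rose and 0 fell, where 0.72% of all 9301 tested probe sets were called higher and 0.473% lower. The 1 that rose was ppp1r3ca. It was chosen for the rule with earlier results of these data known, so its place in the counts here is no separate support. Without the block 0 were called, as among all tested probe sets (0%, with 447 at an unadjusted p under 0.05, of which 3 belonged to the 16). The runzel arrays lay wholly above the wildtype arrays at 4 of the 16, or 25%, namely ppp1r3ca and 1 probe set each of pgm1, pygmb and pygo2, and wholly below at 0. Among all tested probe sets the shares were 5.89% above and 4.6% below. In 8 of the 16 all 3 pairs were higher and in 0 all were lower, against 18.1% and 16.7% of all tested probe sets. These 8 include both probe sets of pgm1, both of pygmb and 2 of pygo2, so they are not separate genes. At the brightest pygo2 probe set the pair of replicate 3 differed by only 0.000329. Without ppp1r37 and pygo2, the runzel arrays lay wholly above at 3 of 12 probe sets, and all pairs were higher at 6 of 12. Both of these counts include ppp1r3ca. The median log2 difference was 0.12 over the 16 and 0.06 over all 21, beside 0.01 over all tested and 0.04 over all probe sets. Over the 16 it ran from 0.06 to 0.23 with an array or pair left out, at 0.07 without wildtype array 2 and 0.23 without wildtype array 3.

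**Figure D3:**
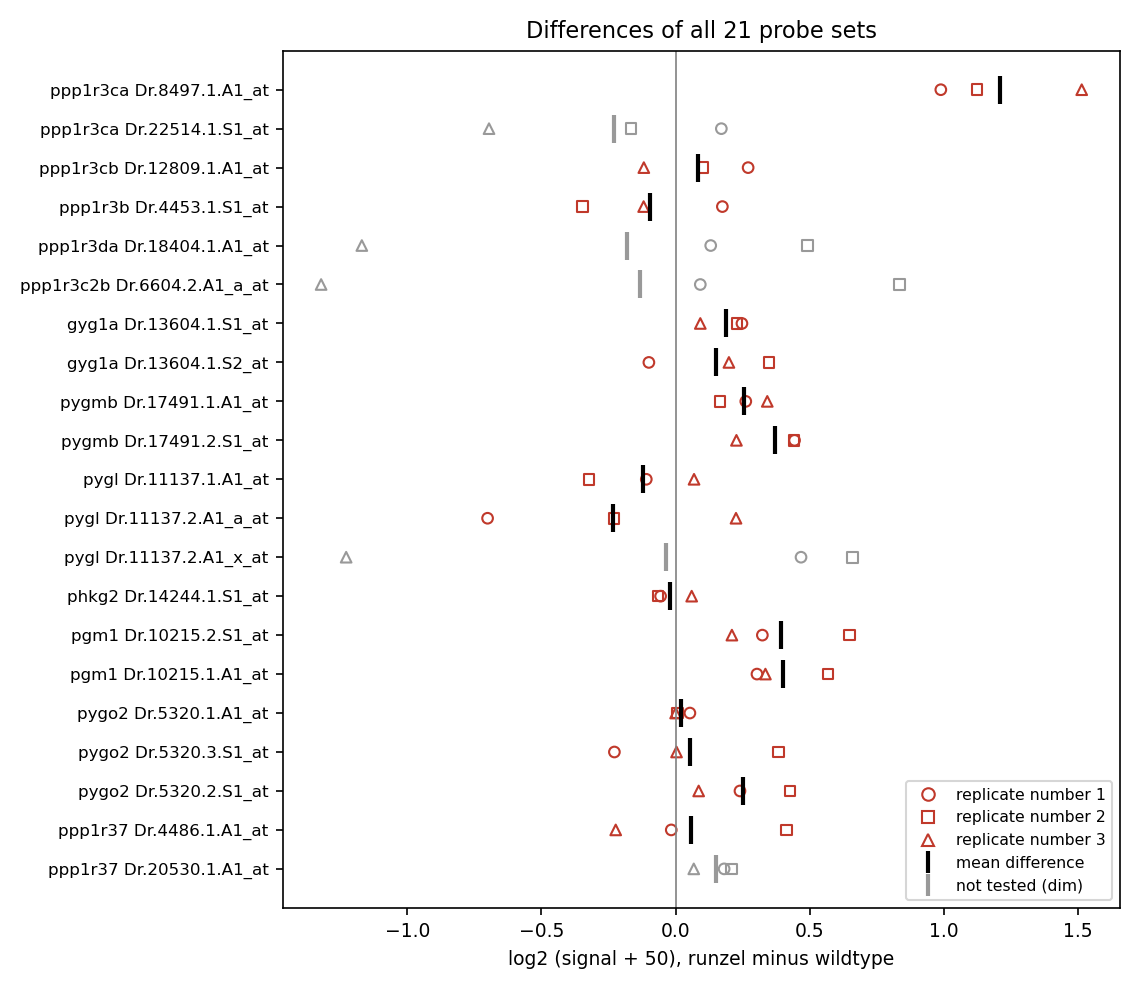
Log2 (signal + 50) differences, runzel minus wildtype, of all 21 probe sets (rows), with an open symbol for each replicate number and a bar for the mean; grey rows were too dim to be tested. The brighter ppp1r3ca probe set lies between 0.99 and 1.51 in its 3 pairs, and the next highest mean of a tested probe set is 0.40, at pgm1.

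**Figure D4:**
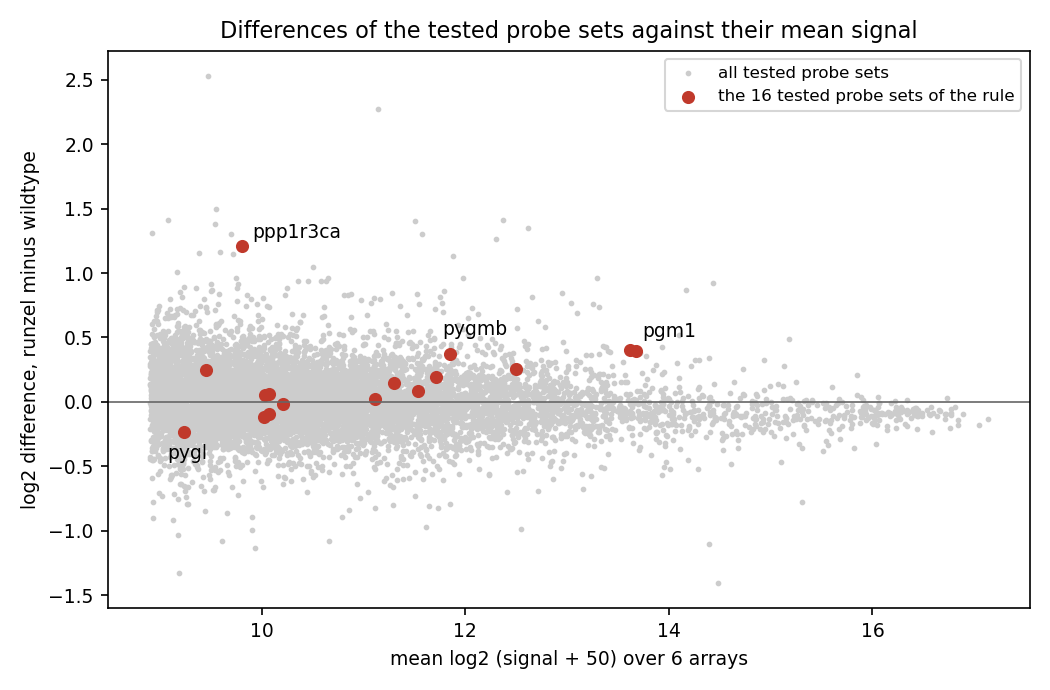
Log2 difference, runzel minus wildtype, of each of 9301 tested probe sets (grey) and the 16 of the rule (red) against the mean log2 (signal + 50) over 6 arrays. ppp1r3ca stands at 1.21 and the pgm1 probe sets at 0.39 and 0.40; the other red points lie between -0.23 and 0.37.

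Genes next to this pathway were taken from lists chosen with earlier results of these data known, each gene by its brightest tested probe set. None passed in either fit, apart from ppp1r3ca. Of 14 tested genes for catalytic and other regulatory subunits of protein phosphatase 1, 9 lay above 0 and 5 below, with a median of 0.05. The catalytic subunit genes ppp1cbl and ppp1cb, the brightest of them, differed by 0.03 and -0.03 (paired adjusted p = 0.943 and 0.947). Of 12 tested genes for kinases upstream of glycogen enzymes, 5 lay above 0 and 7 below, with a median of -0.04. The brightest of these were prkab1b, a subunit of AMP-activated kinase, and prkar2aa, a regulatory subunit of protein kinase A, at -0.11 and -0.03 (paired adjusted p = 0.759 and 0.941).

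In the kinase list prkag3a had the largest difference. It is a subunit of AMP-activated kinase whose mammalian counterpart affects muscle glycogen content, and it was named after its values were seen. It read 512.8, 777.2 and 465.2 in runzel and 419.6, 367.7 and 299.9 in wildtype muscle. The groups did not overlap, as at 5.89% of all tested probe sets with runzel above. The log2 difference of 0.60 ± 0.364 did not pass (adjusted p = 0.977 without the block and 0.301 with it). Its probe set was dim, at percentile 41.5 of mean log2 signal. The related genes prkag2a and prkag1 lay lower in 3 of 3 pairs, at -0.26 and -0.21 (paired adjusted p = 0.529 and 0.569). At prkag2a the runzel arrays lay wholly below the wildtype arrays, as at 4.6% of all tested probe sets. In the same list gsk3ba, also named after its values were seen, had the runzel arrays wholly above the wildtype arrays. It read 1459.1, 1655.5 and 1553.4 in runzel and 1065.2, 1332.7 and 1401.3 in wildtype muscle, at percentile 71.8. Its difference of 0.29 ± 0.146 did not pass (adjusted p = 0.977 without the block and 0.408 with it).

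Of the 2 calmodulin genes measured, which encode the calcium-binding subunit of phosphorylase kinase among other roles, calm3b lay lower in 3 of 3 pairs, at 29344.8, 26771.7 and 27320.6 in runzel and 31708.0, 30762.6 and 32657.6 in wildtype muscle. The groups did not overlap, as at 4.6% of all tested probe sets with runzel below. The difference of -0.19 ± 0.0733 did not pass (paired adjusted p = 0.306), with calm3a at 0.10 (paired adjusted p = 0.849). Of 8 genes for glucose entry and phosphorylation, 5 lay above 0 and 3 below. The brightest, the glucose 6-phosphate isomerase genes gpia and gpib, differed by -0.19 and 0.08 (paired adjusted p = 0.58 and 0.814). The hexokinase gene hk2, named after its values were seen, read 1484.6, 1802.1 and 1005.3 in runzel and 1146.1, 1007.4 and 993.4 in wildtype muscle, a difference of 0.39 ± 0.397 (paired adjusted p = 0.358). The gene ugp2b, for the enzyme that makes the UDP-glucose used by glycogen synthase, differed by 0.13 (paired adjusted p = 0.707). The glycogen quality control list had 1 tested gene, gabarapl2, at 0.14 (paired adjusted p = 0.671).

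The values of the brighter ppp1r3ca probe set over the 6 arrays were set against those of 7194 other tested probe sets with 1 symbol, as a description with no test, since most of what such a comparison ranks is the gap between the groups. The most alike by Pearson's r was hspb8, for a small heat shock protein (r = 0.993, Spearman's rho = 0.943). It was followed by ift122, for a protein of ciliary transport (0.986 and 1), atl2, for a membrane-shaping GTPase of the endoplasmic reticulum (0.975 and 0.771), sox9b, for a transcription factor of cartilage (0.972 and 1), and psmd12, for a proteasome subunit (0.969 and 0.943). The 3 least alike were the clone name wu:fi36a10 (r = -0.99, rho = -0.771), the ribosomal protein gene rpl9 (-0.979 and -0.829) and mpdu1b (-0.978 and -1). Among the glycogen probe sets, the brighter of pygmb was the most like ppp1r3ca (r = 0.851, rho = 0.943), the dimmer of pgm1 followed (0.715 and 0.771), and ppp1r3b had the lowest r (-0.3, rho = -0.486).

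Measures of tissue and RNA moved beside these results. Genes that mark skeletal muscle were measured at 13 of 15 listed, with 1 higher (mybpc2b, log2 1.35, adjusted p = 0.00161) and 1 lower by the paired fit. Of these 13 genes, 2 lay above 0 and 11 below, with a median log2 difference of -0.083. Runzel arrays lay wholly above wildtype arrays at 1 and wholly below at 3, against 5.89% and 4.6% of all tested probe sets. Summed signal of the muscle genes ran from 915463 to 1037198 in runzel and from 984478 to 1160876 in wildtype muscle. Of 4 heart genes measured, myh7 was bright enough to be tested, at 1641.5 to 2227.4 in runzel and 2159.2 to 3006.5 in wildtype muscle (log2 -0.31, lower in 3 of 3 pairs, paired adjusted p = 0.347). The dim heart genes were tnnt2a, at 152.4 to 318.8 in runzel and 107.2 to 162.3 in wildtype muscle and higher in 3 of 3 pairs, cmlc1, at 109.8 to 236.9 and 98.7 to 160.1, and myl7, at 34.0 to 39.5 and 27.6 to 45.9. By the paired fit, 5 of 8 tested markers of the epidermis fell, as did 5 of 8 of liver and pancreas. The epidermis genes that fell were agr1, krt15, krt17, krt91 and krt94. Of these krt91 was near the threshold (paired adjusted p = 0.0497) and did not pass at its dimmer probe set (0.144). The epidermis genes krt4, krt5 and agr2 did not pass, at -0.09, -0.22 and 0.02 (paired adjusted p = 0.537, 0.26 and 0.972). Of endothelium 2 of 4 fell, klf2a and aqp1a.1, and of blood 1 of 3, hbbe2. The endothelium genes kdrl and fli1 did not pass, at -0.16 and -0.72 (paired adjusted p = 0.715 and 0.18). The dimmer fli1 probe set lay at 0.14 (paired adjusted p = 0.861). Of the neural tube 0 of 7 and of gut 0 of 3 passed. With the block 0.473% of all 9301 tested probe sets were called lower, and without it 0 of these markers passed. The 3 gut genes all lay below 0 (median log2 -0.61), with the groups apart at 2 of them, fabp1b.1 and alpi.1. Runzel arrays lay wholly below wildtype arrays at 4.6% of all tested probe sets. The alpi.1 probe set was dim, at percentile 45.5 of mean log2 signal, where testing began at the 40th. It read 175.6 to 525.0 in runzel and 624.9 to 895.6 in wildtype muscle. For gut, summed signal ran from 10275 to 12698 in runzel and from 12760 to 19906 in wildtype muscle. Summed signal was 178290 to 207717 in runzel and 210313 to 241619 in wildtype muscle for epidermis. It was 214615 to 246327 and 277276 to 304812 for liver and pancreas, and 7447 to 11020 and 13036 to 14957 for endothelium. The liver and pancreas genes that fell were apoa1a, apoc2, fetub, rbp4 and tfa. The tested pancreas genes prss1 and cpa5 did not pass, at -0.47 and 0.36 (paired adjusted p = 0.494 and 0.493). The untested fabp10a, hpxa, ins and ela2l were dim, with pairs of either sign. No marker probe set read 0. Dim probe sets also read above 0, as myl7 did at percentile 2.34 of mean log2 signal, so which cell types were present was not tested. For the actin control the ratio of 3′ to 5′ signal was 2.49 ± 0.398 in runzel muscle (SD, n = 3). In wildtype muscle it was 1.51 ± 0.195. The runzel arrays ran from 2.03 to 2.78 and the wildtype arrays from 1.37 to 1.74, without overlap. The exact permutation p was 0.1, the smallest the design allows. For GAPDH the ratio was 1.5 ± 0.0374 in runzel and 1.57 ± 0.0391 in wildtype muscle, with overlap (exact permutation p = 0.2). The actin control is named for acta1, and the muscle marker acta1a was the 1 lower by the paired fit (log2 -0.78, adjusted p = 0.00313). The part of these measures in the values of ppp1r3ca, pgm1, pygmb and pygl was not tested, and in pooled tissue fewer cells of a type and less RNA per cell cannot be told apart.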

How the data were processed

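The values are linear signal intensity, 1 per probe set and array, as the authors deposited them, after scanning on a GeneChip Scanner 3000 and default quantification in GeneChip Operating Software 1.2, per the labels' protocols. The summary method and scaling target are not given in the sources used here. On all arrays the trimmed mean (2% off each end) was 1500.42 to 1500.46 and the median signal 598.8 to 668.1, so no further scaling was done.

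Of 15617 probe sets, 115 controls were left out of testing. Among the other 15502, 10795 had 1 symbol in the platform annotation, 135 several and 4572 none, and 10711 matched the RefSeq gene table by Entrez identifier, which replaced 1 symbol. Log2 of signal plus 50 was used, so fold changes of dim probe sets are understated. Probe sets under the 40th percentile of mean log2 (8.904) were not tested, leaving 9301, and different probe sets of a gene were reported separately. Where genes are counted, the brightest tested probe set stands for the gene.

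Groups were compared by limma 3.58.1 (R 4.3.3) with its intensity trend, and p-values were adjusted by the Benjamini-Hochberg method over all 9301, at 0.05, first without a block and then with the replicate number as one. The fit without a block was planned as the main one, and the block was its alternative. Deviations from group means correlated at 0.551, 0.389 and 0.526 for arrays of the same number and at -0.401 to -0.152 for others. Deviations within a group sum to 0, so the negative values follow from the positive ones and add no separate evidence. The numbers were taken to pair the arrays, a reading of the data that no label states and that used the values then tested. The closing part gives other offsets, filters, scalings, blocks, no trend, and arrays or pairs left out. Named were every probe set of the rule, up to 2 of the brightest genes of each neighbouring list, and the 5 most and 3 least like ppp1r3ca. The genes prkag3a, prkag2a, prkag1, gsk3ba and hk2 fell outside this rule and were named after their values were seen. The members and lists were chosen with earlier results of these data known.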

Additional observations from a re-analysis of the deposited data

How the results depend on the processing

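For ppp1r3ca the log2 difference ran from 0.49, with the mean of its probe sets, to 1.32 over 20 alternatives. Its sign could not turn with another filter, block or trend, since the difference of group means stays the same there. With arrays or pairs left out it could not turn either, since the groups did not overlap. It passed with the replicate block (log2 1.21, adjusted p = 0.00763), with the random replicate block (log2 1.21, adjusted p = 0.0149) and with the block and 1 pair left out (log2 1.06 to 1.32), and it did not pass with the block and no intensity trend (adjusted p = 0.119). In the 12 unpaired alternatives that tested it the adjusted p ran from 0.234 to 0.9998. It was not tested with the filter at the 60th percentile. Over arrays or pairs left out its difference ran from 1.06 to 1.32. Over all probe sets, 0 were called without the block, 111 with the replicate block, 19 with the random block and 3 with the block and no trend, and 0 to 165 with an array or pair left out. With the block it was 41, 32 and 165 without pair 1, 2 or 3, and without the block and runzel replicate 1 it was 1. The median over the tested probe sets of the rule ran from 0.0631 to 0.227 over these omissions, the highest without wildtype replicate 3, and was 0.17 without ppp1r37 and pygo2, an alternative added after the data were seen. Among tested probe sets of the rule, signs turned with arrays or pairs left out for the dimmer gyg1a probe set (-0.0242 to 0.369), phkg2 (-0.119 to 0.0375), the tested ppp1r37 probe set (-0.137 to 0.199), ppp1r3b (-0.349 to 0.166), ppp1r3cb (-0.0227 to 0.252), the brightest of pygl (-0.546 to 0.21), the brightest of pygo2 (-0.101 to 0.152) and the second of pygo2 (-0.112 to 0.247). Among the untested ones they turned for the dimmer of ppp1r3ca (-0.556 to 0.142), ppp1r3da (-0.519 to 0.406), ppp1r3c2b (-0.615 to 0.464) and the untested one of pygl (-0.38 to 0.564). Median centring turned the brightest and second of pygo2 to -0.0333 and -0.000525. The cause was not tested. The 3 arrays per group limit the precision, and no permutation p can go below 0.1.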

Other observations

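The 5 probe sets of the rule that were too dim to be tested had their lowest signal on runzel array 3 in 4 cases, namely the dimmer of ppp1r3ca (81.1), ppp1r3da (67.4), ppp1r3c2b (11.5) and the untested one of pygl (171.3). Over all 6201 untested probe sets runzel array 3 was the lowest array in 18.7%, and over the 9301 tested ones in 16.8%.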
